A study of Drosophila melanogaster with 6 samples.

Results

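Among the open chromatin sites of Drosophila melanogaster midgut progenitors, 570 merged regions were called as peaks in control B, control C and H1 RNAi B and in no other sample. They made up 4.81% of the 11854 regions found by joining peaks that overlapped by 1 bp or more over 6 peak lists. The sites were chosen by the authors' peak calls in these same samples, so their pattern over samples, their rank and their height are given as a description, with no test. The 3 calling samples are also those with the longest lists, at 10872, 8602 and 9827 peaks. The shorter lists, control A, H1 RNAi A and H1 RNAi C, held 6142, 6564 and 7261.

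The lists come from ATAC-seq, an assay that marks accessible DNA by insertion of the Tn5 transposase, on GFP-positive progenitors sorted from the guts of adult females. Both groups of 3 samples carried esgts, UAS-GFP, a temperature-sensitive driver active in intestinal stem cells and in enteroblasts, their committed daughters, together with a GFP reporter. The H1 RNAi group carried in addition UAS H1 RNAi 1, a transgene against the linker histone H1, which was the only RNAi line in these samples. Flies were 3 days old, spent 2 days at 18 °C and then 4 days at 29 °C on poor food, and each replicate held 50000 to 100000 cells from 70 guts. Cells of many guts and of both progenitor types were pooled in each sample, so a site open in few cells and a site weakly open in many cannot be told apart. The rule takes 2 controls and 1 H1 RNAi sample, so no comparison of control with H1 RNAi can be made over these sites.

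As background, an ATAC peak marks DNA that nucleosomes leave free, mostly promoters and enhancers. Genes needed in every cell, such as those for ribosomes, mitochondria or the cell cycle, usually carry a narrow open site right at their start. In the compact fly genome such starts often lie back to back with the end or start of a neighbour. Genes that set cell identity tend to carry several open sites, many of them in introns or between genes.

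The libraries differed in ways that stand beside every value here. Genome-wide background, solved from each list's fold and p-value, in fragments per base was 5.04 in control A, 20.7 in control B and 10.1 in control C. In H1 RNAi A, B and C it was 5.26, 4.83 and 8.28. Control B thus had the highest background and H1 RNAi B, with the second longest list, the lowest. Without control B, the same pattern asked of the other 5 lists gave 651 regions, of which 567 overlapped the 570. Leaving out a list keeps nearly every site by construction. This overlap therefore does not show how far the sites depend on control B. The part of depth and background in the choice of sites was not tested. Of 6 progenitor markers, esg, N, Sox21a and klu showed an open gene end in all 6 samples, Su(H) in 3 controls and 2 H1 RNAi samples, and Delta in 3 controls and 1 H1 RNAi sample. Markers of other cells were mixed. The enterocyte genes nub, GATAe and Amy-p, the enteroendocrine gene sc, the muscle gene how and the neuronal gene elav were also open in all 6 samples. The tracheal genes trh and btl, the neuronal genes nSyb and Syt1 and the hemocyte genes srp and He were open in 0 samples. The same held for the fat body genes Fbp1 and Yp1, the enteroendocrine genes Tk and tap, betaTry of enterocytes and vkg of muscle. Hemocyte NimC1 was open in 2 controls, and Hml of hemocytes, Lsp2 of fat body and Mhc of muscle in 1 control each. Neuronal brp and muscle Act57B were open in 1 H1 RNAi sample each. Myo31DF of enterocytes was open in 2 controls and 3 H1 RNAi samples, and pros and NPF in 2 controls and 1 H1 RNAi sample.

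Of all 20 ways to draw 3 samples from 6, this combination held by far the most regions. Of the 1128 regions called in exactly 3 samples, 50.5% were called in control B, control C and H1 RNAi B. The other 19 combinations held between 0 and 115 regions, with a median of 13, and 3 of them held 0. The next 3 were control B, control C and H1 RNAi C with 115, control B, H1 RNAi B and H1 RNAi C with 82, and control B, control C and H1 RNAi A with 75. Asking the pattern of 5 lists is looser by construction, and it raised the count to 1045 without control C, 974 without H1 RNAi A, 1127 without H1 RNAi B and 917 without H1 RNAi C.

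**Figure D1:**
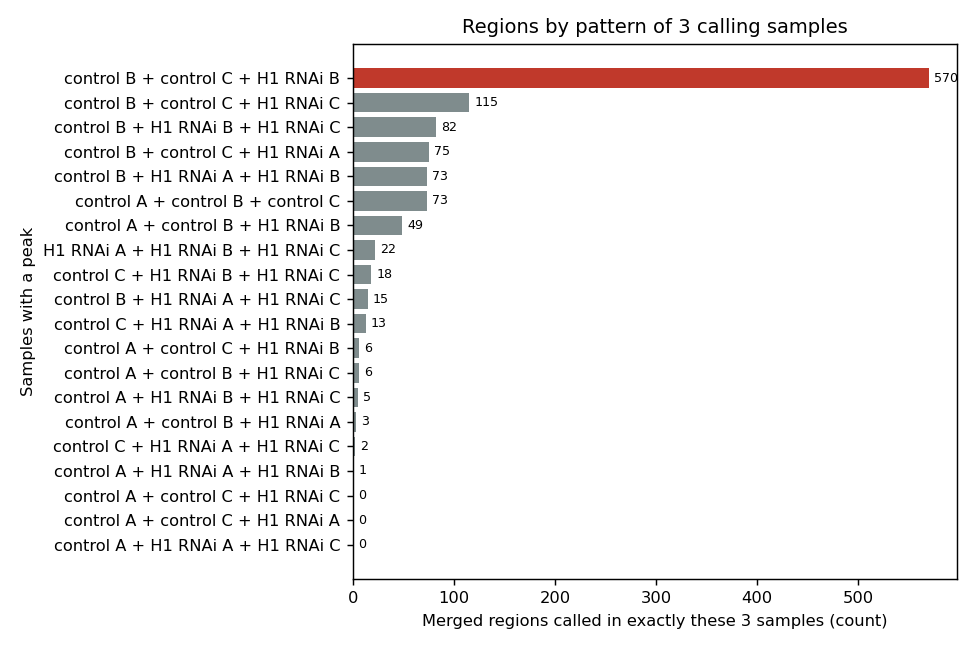
Number of merged regions (x axis, count) called in exactly 3 samples, for each of the 20 combinations of samples (y axis). The bar for control B, control C and H1 RNAi B, in red, reaches 570, and the next reaches 115.

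Within the 3 lists that called them, most of the sites ranked low. A peak's percentile is its rank by the authors' −log10 q-value within its own list, where 100 is the strongest. The median percentile was 33.7 in control B, 21.4 in control C and 22.2 in H1 RNAi B (n = 570 in each). For the 4366 regions called in all 6 samples the medians in the same lists were 79.3, 74.1 and 74.9. Single sites ranged widely, from 0.294 to 72.8 in control B, from 0.0756 to 65.4 in control C and from 0.0814 to 86.0 in H1 RNAi B. Only 139, 164 and 122 of the 570 stood among the 6142 strongest peaks of control B, control C and H1 RNAi B, 6142 being the length of the shortest list. The median −log10 q was 11.1, 7.90 and 6.51 in these lists, and 48 sites reached at least 10 in all 3.

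**Figure D2:**
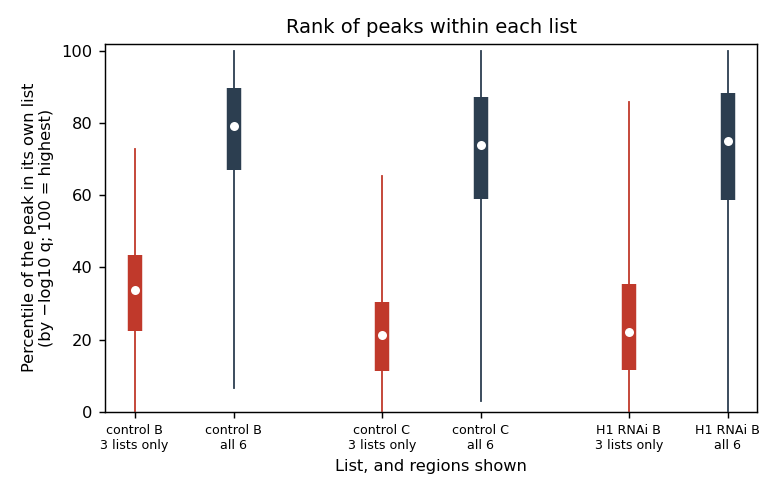
Percentile of the peak within its own list (y axis, by −log10 q) in control B, control C and H1 RNAi B, for the 570 regions called in these 3 lists only (red) and the 4366 called in all 6 samples (dark). Thin lines span lowest to highest, thick bars the middle quartiles, and circles mark medians, which are 33.7, 21.4 and 22.2 for the former and 79.3, 74.1 and 74.9 for the latter.

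The lowest values on either side are given as a description. Inside, the value is the lowest −log10 q over the 3 lists, and outside, that of the extra peak. Both were picked as the lowest, so closeness of values at the edge of the rule was fixed in advance. The weakest sites inside it were at ND-B14.5B and Mad, with a lowest −log10 q of 2.08, at a place with no gene within 2 kb, with 2.20, and at CG43218, in Fur1 and at Trl, each with 2.20. Just outside it were a region in tkv, whose peak in control A had a −log10 q of 2.09, and regions at Pka-C3 and at sinu, whose extra peaks in control A and H1 RNAi A had 2.13 and 2.24. In all, 898 regions were called in the 3 lists and in 1 other, most often H1 RNAi A (401) or H1 RNAi C (347) and least often control A (150).

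The rule joins overlapping peaks, so summits of the 3 lists had to lie near each other, and their distances are given as a description. The summits of control B and control C lay a median of 46 bp apart, those of control B and H1 RNAi B 43 bp, and those of control C and H1 RNAi B 47 bp. For the much stronger regions called in all 6 samples the same distances were 32, 34 and 36 bp. All 3 summits fell within 100 bp in 329 of 570 sites (57.7%), and in 63.2% of the regions called in all 6. The median merged width was 487 bp, against 542.5 bp over all regions and 926 bp for regions called in all 6 samples, which join peaks of more lists.

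Most of the sites lay at the ends of protein-coding genes. The gene table used gives no strand, so a gene end is either the start or the finish of a gene, with 500 bp on either side. By the summit of the highest-ranked peak, 355 of 569 placed sites (62.4%; exact 95% interval 58.3 to 66.4%) lay at a gene end, 159 (27.9%; 24.3 to 31.8%) inside a gene and 55 (9.67%; 7.36 to 12.4%) between genes, and 1 more lay on the sequence named TE. The share at gene ends was 41.4% (1772 of 4281; 39.9 to 42.9%) for regions called in all 6 samples and 42.8% over all 11573 placed regions. For regions called in 1, 2, 4 and 5 samples it was 33.7, 42.0, 52.0 and 51.9%. For the other regions called in 3 samples it was 41.2%. The intervals given cover counting error alone, and neighbouring regions are not independent. No test was run on these shares, since regions are not replicates.

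The gene-end share stood above that of low-ranked peaks at large in the same lists, counted there over single peaks and not merged regions. Among the lower-ranked 50% of peaks it was 45.0% in control B, 48.5% in control C and 50.7% in H1 RNAi B. In the upper 50% it was 44.5, 39.9 and 38.9%. The lower part of each list held the larger share in all 6 samples, with 47.6 against 35.7% in control A, 54.4 against 36% in H1 RNAi A and 46.1 against 30.0% in H1 RNAi C. Combinations of 3 samples differed as well, with 67.1% (49 of 73) at gene ends for control B, H1 RNAi A and H1 RNAi B but 29.4% (32 of 109) for control B, control C and H1 RNAi C. Leaving H1 RNAi B out of the rule lowered the share from 62.4 to 47.3%, and leaving out H1 RNAi C lowered it to 52.7%.

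Many summits sat almost on the gene end itself. Within 50 bp of an end lay 181 of 569 sites (31.8%), against 10.6% of regions called in all 6 samples and 15.5% of all regions. The median distance from summit to nearest gene end was 150 bp for these sites, 966 bp for regions called in all 6 and 953 bp over all regions. Shared ends were common, since 185 of the 355 gene-end sites (52.1%) lay at ends of 2 genes and 19 (5.35%) at ends of 3 or more. In regions called in all 6 samples these shares were 38.2 and 2.48%. At a shared end the site cannot be assigned to any of the neighbours.

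**Figure D3:**
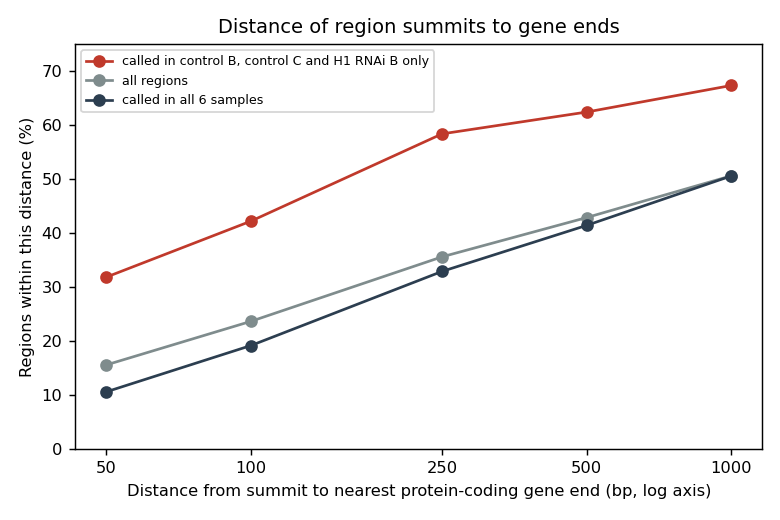
Share of placed regions (y axis, percent) whose summit lies within 50, 100, 250, 500 or 1000 bp of the nearest end of a protein-coding gene (x axis, log scale), for the regions called in control B, control C and H1 RNAi B only (red), all regions (grey) and regions called in all 6 samples (dark). The red curve starts at 31.8% and the dark curve at 10.6%.

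The 355 gene-end sites lay at 573 of 13935 protein-coding genes (4.11%), while 2487 genes (17.8%) had a region called in all 6 samples and 6698 (48.1%) a region of any kind. For 457 of the 573 these sites were the only regions at either end, so in control A, H1 RNAi A and H1 RNAi C their ends had no region with its summit there. Their median length was 2202 bp, close to the 2161 bp of all genes, and lay between the 1729 bp of genes with no region at an end and the 3827 bp of genes with a region called in all 6.

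Most of these genes stood on none of the gene lists examined, since 84 of the 573 were on a list of general cell functions and 17 on another list. The share of a list's genes with such a site was higher for the former. Over 19 lists of general functions together, 84 of 946 genes (8.88%; exact 95% interval 7.14 to 10.9%) had such a site at an end. Over 14 lists of identity, signalling and tissue genes together the count was 17 of 1067 (1.59%; 0.931 to 2.54%), and over all genes 4.11%. The share was above that of all genes in 16 of the 19 general lists, the exceptions being translation factors, vacuolar proton ATPase subunits, and ubiquitin and autophagy genes, and in 2 of the 14 others, enteroendocrine and visceral muscle genes. General genes also had an open end of any kind more often, 695 of 946 against 328 of 1067. Among genes with any region at an end, the sites reached 12.1% of general genes, 5.18% of the others and 8.55% of all. Seen from the sites, 22.8% of the 355 touched a general gene and 4.51% a gene of the other lists. These shares were 15.27 and 6.999% over all gene-end regions, and 11.7 and 8.52% over those called in all 6 samples. Ends of 2 genes held 52.1% of the 355 sites, 45.2% of all gene-end regions and 38.2% of those called in all 6. A site at a shared end has more genes to touch, and the shares were not adjusted for this. The grouping of the lists followed a look at these values. So did the removal of some entries, such as neprilysin-like genes from the enterocyte list. Nepl5, a gene of that family with a site at an end, is on no list. The contrast between general and other lists is therefore a description, and its intervals do not cover these choices.

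**Figure D4:**
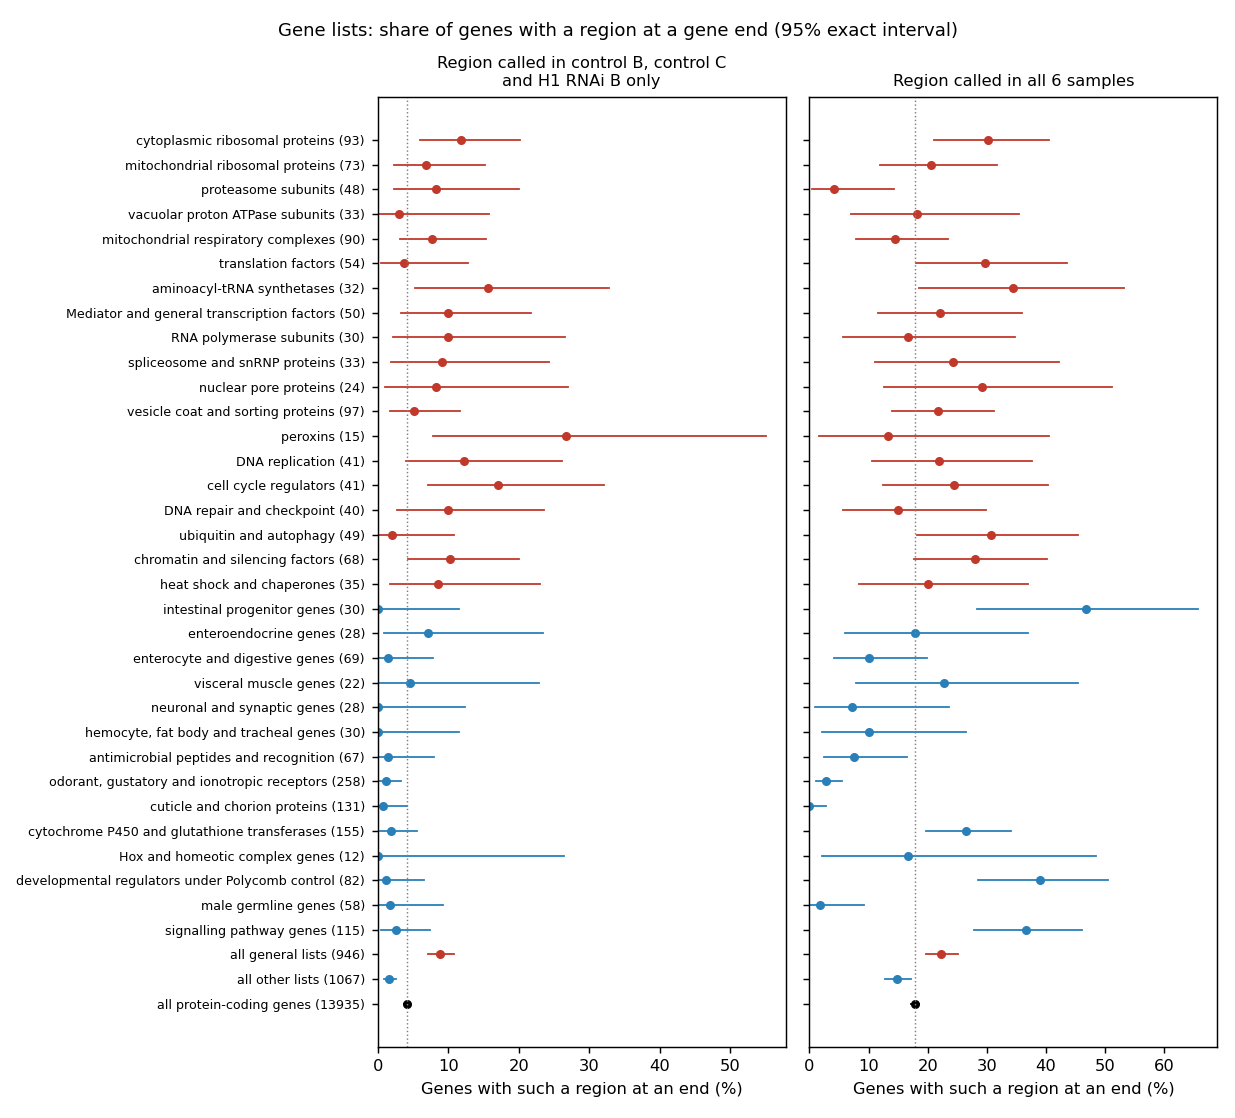
Share of genes (x axes, percent) with a region called in control B, control C and H1 RNAi B only (left) or called in all 6 samples (right) at a gene end, for each gene list (y axis, number of genes in brackets). Points are shares, lines exact 95% intervals, red marks general functions, blue the other lists and black all protein-coding genes, whose shares of 4.11 and 17.8% are the dotted lines.

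Cell cycle and DNA replication genes are needed by dividing stem cells. Of 41 cell cycle regulators, 7 (17.1%; exact 95% interval 7.15 to 32.1%) had such a site, against 4.11% of all genes, and 10 had a region called in all 6 samples. The highest-ranked was at polo, the mitotic kinase gene, on an end shared with alphaSnap (chromosome 3L, 20313412 to 20314064), at percentiles 52.7 in control B, 41.5 in control C and 59.5 in H1 RNAi B. The site of CycE, the cyclin of S-phase entry (2L, 15747287 to 15748239), stood at 56.4 and 56.3 in control B and H1 RNAi B but at 16.8 in control C. Cdk2, the kinase partner of cyclin E (3R, 20735346 to 20735841), stood at 47.1, 13.8 and 23.9 in control B, control C and H1 RNAi B. The remaining 4 were fzr and fzy, which encode activators of the anaphase-promoting complex, APC7, a subunit of that complex, and the mitotic kinase gene aurA. Of 41 replication genes 5 (12.2%; 4.08 to 26.2%, which includes the 4.11% of all genes) had a site: Mcm10, the ligase gene DNAlig1, the licensing factor gene Cdc6, the primase gene Prim1, and geminin, whose product blocks licensing. Their −log10 q in the 3 lists lay between 4.82 at geminin in control C and 16.7 at Prim1 in control B.

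Ribosomal and mitochondrial genes lay at varying distance from the 4.11% of all genes. Of 93 cytoplasmic ribosomal protein genes, 11 (11.8%; exact 95% interval 6.05 to 20.2%) had a site, 28 a region called in all 6 samples and 71 a region of some kind. RpL14 shared its end with Nelf-E, a gene for promoter-proximal pausing (3L, 8600853 to 8601242), and stood at percentiles 57.7, 43.4 and 71.0 in control B, control C and H1 RNAi B. RpL11, RpS29, RpS4, RpL17 and RpL27A came next, with RpL27A at 29.3, 21.1 and 19.5. Mitochondrial ribosomal proteins had 5 of 73 genes (6.85%; 2.26 to 15.3%), led by mRpL13, and respiratory complexes 7 of 90 (7.78%; 3.18 to 15.4%), led by SdhB of succinate dehydrogenase (2R, 6807560 to 6807830). At SdhB the percentiles were 50.2 in control B, 28.7 in control C and 48.8 in H1 RNAi B.

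The other general lists held 1 to 5 genes with a site each, and most of their exact intervals include the 4.11% of all genes. Peroxins, which build peroxisomes, had the highest share with 4 of only 15 genes (26.7%; exact 95% interval 7.79 to 55.1%), namely Pex11ab, Pex16, Pex13 and Pex2. Pex11ab had a separate site at each end, and the site of Pex2 is also that of Prim1. Aminoacyl-tRNA synthetases, which charge tRNAs, had 5 of 32 (15.6%), AlaRS, LeuRS, AlaRS-m, IleRS-m and CysRS. Mediator and general transcription factors had 5 of 50, with Taf10 and Taf10b on 1 shared site, DNA repair 4 of 40, RNA polymerase subunits 3 of 30 and the proteasome 4 of 48. For the proteasome this was more than the 2 genes with a region called in all 6 samples. Vesicle coat and sorting genes had 5 of 97, spliceosome genes 3 of 33, heat shock and chaperone genes 3 of 35 (Hsp68, CCT7 and CCT6), nuclear pore genes 2 of 24, translation factors 2 of 54 and vacuolar proton ATPase subunits 1 of 33. The ubiquitin and autophagy list had the lowest general share, 2.04% of its 49 genes.

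Chromatin factors with a site included esc and Sce, genes of separate Polycomb complexes. Of 68 genes 7 (10.3%; exact interval 4.24 to 20.1%) had a site, and 19 had a region called in all 6 samples. The lower end of the interval lies just above the 4.11% of all genes. At esc, a subunit of the complex that methylates histone H3 (2L, 11828979 to 11829542), the percentiles were 57.9, 56.1 and 50.7 in control B, control C and H1 RNAi B. Sce, the ubiquitin ligase of the other Polycomb complex (3R, 27681802 to 27682094), stood lower, at 19.9, 11.2 and 29.9. The insulator genes Ibf1 and pita, the SWI/SNF-type remodeller genes brm and Bap111, and Trl, which encodes GAGA factor, were the others. Trl shared its end with CG42507 and ome and was among the weakest sites, with a −log10 q of 6.85, 8.56 and 2.20.

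Among lists of lineage and developmental genes the counts were low, and at these list sizes they cannot be told from the 4.11% of all genes, which lies inside each exact 95% interval. Of 30 intestinal progenitor genes 0 had a site at an end (interval up to 11.6%), and 14 (46.7%) had a region called in all 6 samples. Developmental regulators under Polycomb control had 1 of 82 (0.0309 to 6.61%), ey on chromosome 4, against 32 with a region called in all 6. Hox genes had 0 of 12 (up to 26.5%), against 2, and neuronal genes 0 of 28 (up to 12.3%), against 2. Signalling genes had 3 of 115 (2.61%; 0.541 to 7.43%), against 42 with a region called in all 6. These were Rheb, the GTPase that activates TOR, pnt, the ETS factor of EGFR signalling, and Mad, the effector of Dpp, whose site was shared with ND-B14.5B. The site at the end of pnt (3R, 23345823 to 23346448) stood at percentiles 50.2 in control B, 25.1 in control C and 41.8 in H1 RNAi B.

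Lists of differentiated cells lay on both sides of the 4.11% of all genes. The enteroendocrine list had 2 of 28 genes (7.14%; exact 95% interval 0.877 to 23.5%): NPF, a gut hormone gene whose end is shared with CG12783, and pros, the enteroendocrine fate factor, whose end is shared with mRpL40. At pros (3R, 11407834 to 11408287) the −log10 q was 7.84, 4.97 and 3.72 in control B, control C and H1 RNAi B. The enterocyte list had 1 of 69, Myo61F, shared with the respiratory gene ND-ACP, and visceral muscle 1 of 22 (4.55%), Tm1, shared with MRG15. The hemocyte, fat body and tracheal list had 0 of 30. Immune genes had 1 of 67 (Drsl6) and cuticle and chorion genes 1 of 131 (Lcp9). The list of odorant, gustatory and ionotropic receptors had 3 of 258, Ir8a and 2 pickpocket channel genes, ppk11 and ppk16. The name of that list does not cover the pickpocket genes. Male germline genes had 1 of 58, topi, on the end shared with RpS29. Detoxification genes of the P450, glutathione transferase and UDP-glycosyltransferase families had 3 of 155 (GstD8, Ugt36A1 and Ugt35D1), but 41 with a region called in all 6 samples.

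Ranked by the lowest of their 3 percentiles, 7 of the 20 strongest sites at named gene ends touched a gene of the general lists. A gene of the other lists was touched by 0. Over all gene-end sites these shares were 22.8 and 4.51%, and over all gene-end regions 15.27 and 6.999%, so 20 sites are too few to set apart. Ets21C, tup and E(spl)m7-HLH, which are among the genes at these 20 sites, are on no list. Acadvl, of mitochondrial fatty acid oxidation, came first (2R, 19305077 to 19305386), with a −log10 q of 28.7 in control B, 24.0 in control C and 15.3 in H1 RNAi B and no peak in control A, H1 RNAi A or H1 RNAi C. Nopp140, a nucleolar protein gene (3L, 21832651 to 21833054), had 25.7, 21.1 and 17.6 in the same lists. The third lay 3 bp from an end of the signal peptide peptidase gene Spp, at ends shared with Ets21C, an ETS factor, and nAChRbeta3 (2L, 544581 to 545111), with 33.9, 21.3 and 14.3. Then came Srrm234, esc, the proteasome ATPase gene Rpt5 with RanBP3, mio of the GATOR complex, RpL14, the diacylglycerol kinase gene rdgA, and mRpL13 with tup, a LIM-homeodomain factor. The rest of these 20 were polo, JMJD7, E(spl)m7-HLH, the kinetochore gene Zwilch, Unc50, the transcription elongation gene Rtf1, the Golgi gene GM130, eIF2Bdelta, the glycolytic gene Gapdh1 with the polymerase gene PolZ1, and Debcl of the Bcl-2 family.

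Lists did not always rank a site alike. E(spl)m7-HLH, a Notch target that encodes a repressor (3R, 26036814 to 26037038), was at percentile 73.7 in H1 RNAi B but at 40.1 in control B and 42.0 in control C. Zwilch (3R, 31213115 to 31213680) went the other way, at 65.8 and 60.3 in controls B and C and at 40.0 in H1 RNAi B. With 1 H1 RNAi sample in the rule, such differences cannot be set against a replicate spread, and ranks from lists of unequal length do not show a change.

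**Figure D5:**
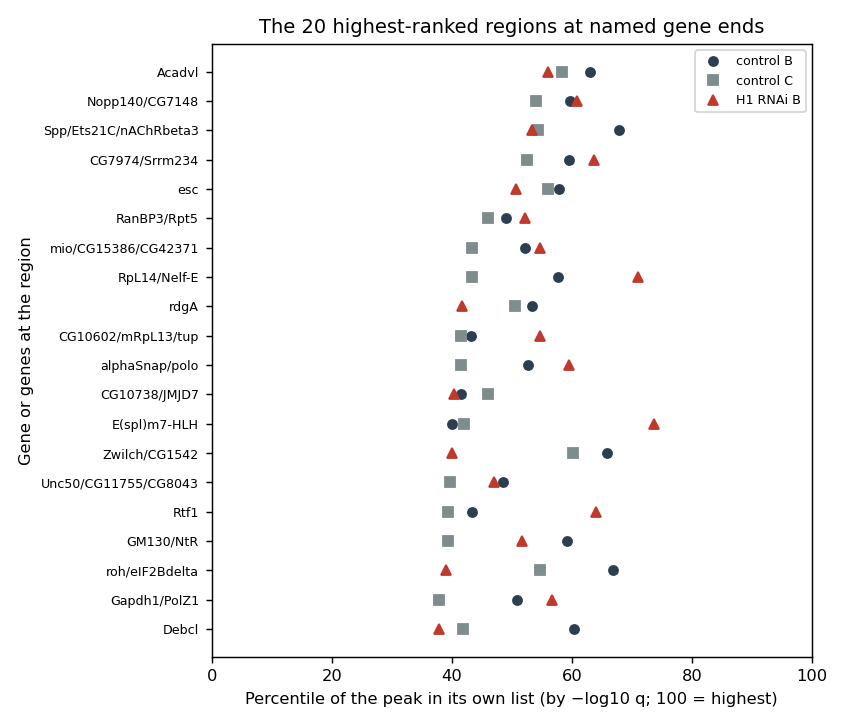
Percentile of the peak within its own list (x axis, by −log10 q) for the 20 highest-ranked sites at ends of named genes (y axis), in control B (dark circles), control C (grey squares) and H1 RNAi B (red triangles). E(spl)m7-HLH stands highest in H1 RNAi B at 73.7, whereas Zwilch stands at 65.8 in control B and 40.0 in H1 RNAi B.

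The 159 sites inside genes lay mostly in long genes. Their 151 host genes had a median length of 28800 bp, and 88 of them (58.3%) exceeded 20 kb. Hosts of regions called in all 6 samples had a median of 15728 bp, with 40.4% over 20 kb. Summits within 500 bp of a gene end were not counted as inside, so very short genes could not be hosts in either set. Each host was counted once, and the 2027 regions called in all 6 samples lay in 1226 hosts. Genes holding many regions thus weigh no more than others, which limits the comparison of the medians. The highest-ranked were in mura, which encodes a RING-finger protein, with percentile 86.0 in H1 RNAi B but 54.5 and 48.6 in controls B and C, and in pnt (3R, 23331857 to 23332335), with 57.0, 53.3 and 44.1 in control B, control C and H1 RNAi B. The forkhead gene CHES-1-like, Wdr62, the nuclear receptor coactivator gene tai and bun followed. General lists had 3 of the 159 sites, against 71 of the 2027 gene-body regions called in all 6 samples. Signalling genes had 4, in pnt, Socs36E, kibra and puc, against 119 of the 2027. Polycomb-controlled regulators had 2, in grn and dac, against 28 of the 2027. The progenitor list had 1 (bab2), against 45 of 2027 gene-body regions called in all 6.

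Sites between genes numbered 55. By lowest percentile the strongest of them, and of all 570, lay 505 bp from the nearest gene end near CG5191, TFAM and CG5412 (3R, 20574523 to 20575084), just past the 500 bp limit, with percentiles of 69.7, 58.2 and 68.1 in control B, control C and H1 RNAi B. The next lay near pHCl-2 (3R, 31298735 to 31299203), at a place with no gene within 2 kb (2R, 17143906 to 17144310) and near rho-6 (2L, 12133765 to 12134278).

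The sites were spread over the genome rather than gathered at few loci. Chromosome 2L held 125 (21.9%, against 17.6% of all regions), 2R 112, 3L 116, 3R 126, X 84 (14.7%, against 16.9%) and chromosome 4 held 6. Counting 2 kb on either side, 61 genes had more than 1 site. Of these, kirre and pyd had 3 and the other 59 had 2, with ATP6AP2, ATPCL, Asap and CCT6 first by symbol. Neighbouring genes can count the same sites, as Ibf1 and ATP6AP2 do, so distinct loci are fewer than 61. At kirre, a cell adhesion gene of 394149 bp, 40 regions were found in all, and at pyd, a junction scaffold gene, 9. On the major arms the sites lay a median of 7013 bp from the nearest region called in all 6 samples, and 42 of 563 (7.46%) had such a region within 1000 bp. For the other regions called in 3 samples these values were 6290 bp and 10.1%.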

How the data were processed

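The 6 deposited narrowPeak lists, 1 per sample and none pooled, were used. The submitters' processing notes name MACS2, Picard, Bowtie2 and Trim Galore and the dm6 build. Their order, versions and settings, and whether reads were shifted for Tn5, are not stated there. Each deposited list gives start, end and summit (other units), an integer score (not used further), a fold ratio, and a p-value and q-value on the −log10 scale, all written by the authors' peak caller. Within each list they ranked or filtered peaks and served nothing else. Read totals were not used. Background was solved from fold and p-value as MACS2 defines them, and its most frequent value per list was taken.

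Peaks were merged with Python 3.11.15 and pandas 2.3.3, with exact binomial intervals from scipy 1.17.1. Merging was tested on simulated lists. Gene positions came from the NCBI table of the dm6 assembly, without strand or sequence, so gene ends replaced the planned starts and no sequence is shown. All symbols of the 33 gene lists matched, 17 through synonyms. Named were the 20 gene-end, 6 gene-body and 4 intergenic sites highest by lowest percentile. Also named were up to 6 genes per list and the 6 loci first by number of sites, with ties taken by symbol. Genes named beyond these (past the sixth of a list, or by list inside gene bodies), and the grouping into 19 general and 14 other lists, were chosen after their values were seen. Some list entries that a list's name did not cover were also removed then, but the receptor list kept ppk11 and ppk16. Sites and lists were chosen with earlier results of these data known.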

Additional observations from a re-analysis of the deposited data

How the results depend on the processing

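No paired analysis was possible because the pattern of calls fixes these counts and no test between groups was made; an annotated start in place of both gene ends was not run, for lack of strand. The 570 sites became 399 with reciprocal overlap of 50%, 562 with summits clustered within 150 bp, 591 at a −log10 q of at least 3 and 563 on the major arms. A −log10 q of at least 10 gave 869 regions of median width 709 bp at 873 genes and 2.91% of genes in the 14 other lists. Only 48 overlapped the 570, since only 48 of the 570 reached 10 in all 3 lists. Most of the 869 were regions whose peaks in the shorter lists fall below 10 and which then enter. A fold of at least 4 gave 168, of which 7 overlapped, at 190 genes, with 73.1% at gene ends, 3.59% between genes, a median width of 741.5 bp, 2.43% of general genes and 0.562% of the others. Lists cut to 6142 peaks gave 52 sites at 65 genes, with 71.2% at gene ends, a width of 579 bp, 1.16% of general genes and 0% of the others. Reciprocal overlap gave a width of 462 bp. A window of 1000 bp put 67.3% at gene ends, and one of 250 bp left 0.656% of the genes in the other lists. Leaving out each sample gave 651 to 1127 regions at 611 to 1042 genes, 47.3 to 66.8% at gene ends, 7.91 to 13.5% between genes, widths of 352 to 534.5 bp, 9.09 to 15% of general genes and 1.78 to 3.19% of the others. The share of general genes exceeded that of the others in each setting above that gives both. Sets that leave out a sample keep nearly every site by construction, so they give no separate evidence of this order. General genes also had a region of any kind at an end more often, in 73.5% against 30.7% of genes. Of 99 counts for single lists under other windows, 79 stayed within 1.5 times. Read totals were not used, so the depth behind a call, and what a missing call can exclude, is unknown.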

Other observations

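Further sites lay at genes that bear on stem cell fate and survival, all picked after their values were seen. The cell death genes hid (3L, 18167047 to 18167347) and grim (3L, 18304411 to 18304849), which lie in the same stretch of the chromosome, each had a site at a gene end. At hid the percentiles were 27.7 in control B, 9.08 in control C and 17.6 in H1 RNAi B, and at grim 24.1, 19.9 and 2.99. The Notch inhibitor gene numb shared a site with RpS28-like (2L, 9437352 to 9438300), at 52.1, 46.0 and 16.4. The topoisomerase gene Top2 stood at 40.8, 33.5 and 22.4, Dcr-1 of microRNA processing at 38.4, 22.0 and 27.4, and RnrS, a subunit of ribonucleotide reductase, at 30.7, 39.8 and 4.16 in control B, control C and H1 RNAi B.

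Some sites lay within 500 bp of an end of a non-coding gene. The counts were 17 of 569 for lncRNA genes (2.99%, against 3.81% of regions called in all 6 samples and 3.40% of all regions) and 3 for tRNA genes (0.527%, against 1.31 and 0.916%). For snoRNA genes there were also 3 (0.527%, against 0.304 and 0.268%), for snRNA genes 1 (0.176%, against 0.140 and 0.121%) and for microRNA genes 1 (0.176%, against 0.327 and 0.302%).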
